A study of Mus musculus with 12 samples.

Results

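The genes described here are Ly6a, which encodes the surface antigen Sca-1, its relatives Ly6c1 and Ly6e, and the adventitial fibroblast markers Cd34, Cd248, Clec3b, Pi16, Dpp4, Dpt and Sema3c. These 10 genes were taken by name from the 49585 gene identifiers of the count tables, and all 10 were among the 18648 genes tested. The study sorted 4 populations of mouse skeletal stroma and sequenced 3 bulk RNA libraries of 2000 cells from each. All mice were wild-type C57BL/6 males aged 8 to 10 weeks at steady state, and every population was sorted as negative for CD45, Ter119 and CD31, which mark haematopoietic, erythroid and endothelial cells. Itga8+ MSCs were Itga8+Alcam+Sca-1-, Itga8- Alcam+ bone-lining cells (BLCs), which the labels call osteoblasts, were Itga8-Alcam+Sca-1-, and Sca-1+ MSCs were Alcam-Sca-1+. These 3 populations came from collagenase-digested bone fragments left after the marrow was flushed out. CD51+CD140a+ MSCs came from the flushed marrow itself and were not selected on Sca-1. That marrow was digested with another enzyme, Accumax, at a lower temperature and for a shorter time. Population, tissue fraction and digestion therefore cannot be told apart in any comparison with CD51+CD140a+ MSCs. The labels number the libraries but do not say whether they came from separate mice, so the p-values measure the spread between libraries, which may be technical. The 4 populations are called Itga8+ cells, Itga8- BLCs, Sca-1+ cells and CD51+CD140a+ cells from here on.

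Ly6 proteins are small, disulphide-bonded proteins that a lipid anchor holds on the outer face of the cell, and their genes lie in a cluster that interferons can induce. Sca-1 marks haematopoietic stem cells as well as mesenchymal progenitors and the endothelium of arterioles. The antibody name Ly-6A/E refers to alleles of Ly6a and not to the separate gene Ly6e. Adventitial fibroblasts are the collagen-producing cells of the outer coat of vessels and of connective tissue sheaths. In single-cell surveys of many mouse tissues, fibroblasts with Ly6a, Cd34, Pi16, Dpp4 and Dpt form a shared, progenitor-like state.

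Ly6a, Ly6c1 and Ly6e lie close together on chromosome 15 of mm10 (Ly6a at chr15:74994877-74998031 on the minus strand, Ly6c1 at chr15:75044018-75048830 on the minus strand, Ly6e at chr15:74955051-74959905 on the plus strand). Ly6c2, the nearest relative of Ly6c1, lies 59.3 kb from it at chr15:75108158-75111970 on the minus strand. It was not one of the chosen genes but limits the reading of Ly6c1, because 21.5% of the 50-base words of Ly6c1 also occur in Ly6c2 and 11.1% in Ly6a. The share of words found in no other gene was 67.2% for Ly6c1, 81.0% for Ly6a, 85.5% for Ly6c2, and 96.1% to 100% for the other 8 genes. Levels of Ly6c1 and Ly6a are therefore uncertain to the extent that reads in shared words were dropped or assigned to the other gene. Ly6c1 was higher and Ly6c2 lower in Sca-1+ cells than in both Alcam+ populations, so the 250 bases before the start site of each are shown first, 5′ to 3′ (RefSeq, GRCm38.p6, the most upstream start site, chr15:75048838-75049087 and chr15:75111972-75112221, minus strand), with bases that differ, face a gap or lie outside the alignment in capitals.
Ly6c1: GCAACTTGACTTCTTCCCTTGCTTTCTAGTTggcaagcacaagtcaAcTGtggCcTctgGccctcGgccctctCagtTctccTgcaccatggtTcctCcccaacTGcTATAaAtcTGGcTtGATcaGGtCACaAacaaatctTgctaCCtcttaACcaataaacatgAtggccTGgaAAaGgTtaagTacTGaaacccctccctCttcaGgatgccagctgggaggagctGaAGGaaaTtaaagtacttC
Ly6c2: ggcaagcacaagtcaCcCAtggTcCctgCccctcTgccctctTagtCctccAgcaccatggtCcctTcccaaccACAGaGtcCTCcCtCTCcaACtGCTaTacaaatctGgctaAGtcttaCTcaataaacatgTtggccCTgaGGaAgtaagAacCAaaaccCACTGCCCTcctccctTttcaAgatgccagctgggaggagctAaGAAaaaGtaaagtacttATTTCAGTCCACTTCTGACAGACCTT
The alignment held 228 columns, of which 164 (71.9%) were identical, 52 were mismatches and 12 were gaps. Of 7 motifs searched on both strands, the Ly6c1 window held TATAAA, the letters of a TATA box, from -143 to -138 and a CCAAT box (CCAAT) from -95 to -91, counted from the start site, and the Ly6c2 window held none. A match anywhere in the window was counted, so TATAAA here is not placed as the TATA box of this start site. Whether either match bears on the levels of Ly6c1 and Ly6c2 was not tested. Over 32851 windows of the same length, 12.4% held TATAAA and 33.9% held CCAAT.

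Windows were found for 6 of the 10 genes. That of Dpp4, a marker of the progenitor state, is shown because it held the most kinds of motif (chr2:62412232-62412481, minus strand), with motif matches in capitals.
Dpp4: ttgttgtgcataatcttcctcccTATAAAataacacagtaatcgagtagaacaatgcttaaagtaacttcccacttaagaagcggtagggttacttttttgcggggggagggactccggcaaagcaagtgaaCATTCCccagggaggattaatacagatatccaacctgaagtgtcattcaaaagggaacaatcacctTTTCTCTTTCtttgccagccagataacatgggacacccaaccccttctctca
It held TATAAA from -227 to -222, a TEAD motif (GGAATG) from -118 to -113 and an ISRE core from -52 to -43, and 12.6% and 2.98% of all windows held the TEAD motif and the ISRE core. The Dpt window, 1 of those not shown, held a GAS element (TTCNNNGAA) from -128 to -120, as did 7.02% of all windows. Pi16 held a CCAAT box, Sema3c held 3 GC boxes (GGGCGG, in 32.7% of all windows), and Cd34 held none of the 7 motifs. An AP-1 motif (TGANTCA, in 6.75% of all windows) was in none of the 6 windows. A motif match is a description of letters and not of a bound site.

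Total counts per library ranged from 17580677 to 31332475, with the 3 CD51+CD140a+ libraries the deepest. Marker genes were read as a check of the labels. The summed level of 11 markers of LepR+ marrow stroma was 57543 to 76434 CPM (the count scaled to library size) in CD51+CD140a+ cells and 620 to 1008 CPM in the other populations, and that of 12 osteoblast markers was highest in Itga8- BLCs, at 45334 to 117199 CPM. Blood cell markers were present in spite of the CD45- and Ter119- gates, and the 21 of them summed to 2445 to 13075 CPM in Itga8+ cells, 4681 to 6703 in Itga8- BLCs, 1111 to 1874 in Sca-1+ cells and 1329 to 2043 in CD51+CD140a+ cells. Itga8+ replicate 2 stood apart with the highest blood sum, 13075 CPM against 5883 and 2445 in the other Itga8+ libraries.

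In Sca-1+ cells, 9 of the 10 genes were called higher than in Itga8+ cells, 9 were called higher than in Itga8- BLCs and 9 were called higher than in CD51+CD140a+ cells, and none was called lower. Ly6e was the gene not called in each. Ly6a is among the 9 in each count and enters the medians below. Its protein split Sca-1+ cells from both Alcam+ populations, so its calls against these were set by the sort. A gene was called at an adjusted p under 0.1 with a fold change above 2, by edgeR's quasi-likelihood test on all 12 libraries with Benjamini-Hochberg adjustment over the 18648 genes tested. Of all genes tested, 8.89%, 11.9% and 11.2% were called higher in Sca-1+ cells in the same comparisons, and 12.9%, 14.5% and 9.3% were called lower. The median log2 fold change of the 10 genes was 4.68, 5.14 and 9.48 in that order, against -0.16, -0.12 and -0.0025 over all genes. The 3 comparisons share the Sca-1+ libraries and are not independent of each other. Counts given below for other gene lists are to be read beside these shares of all genes. In bulk libraries, a smaller share of expressing cells and less RNA per cell cannot be told apart.

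**Figure D1:**
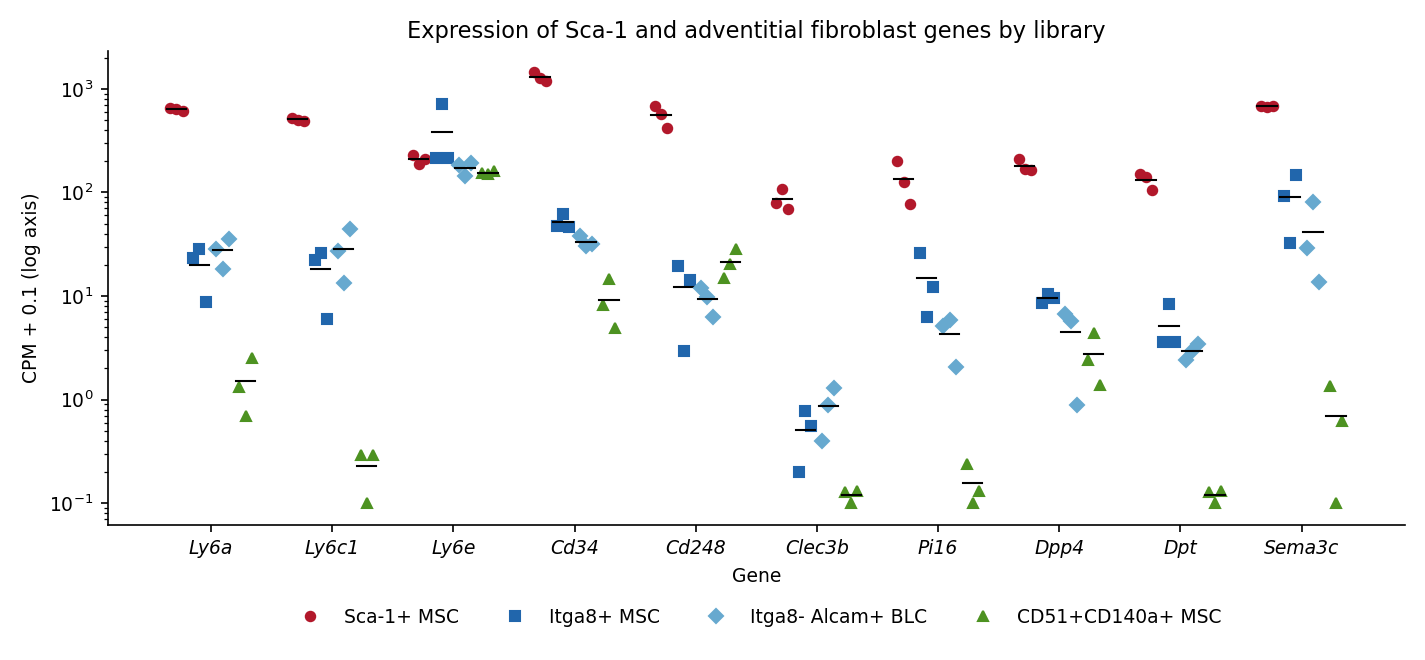
Expression of the 10 genes in each of the 12 libraries, as CPM + 0.1 on a log axis, with 1 point per library, 3 per population, and a bar at the mean. The Sca-1+ points lie above all others for 9 genes, and for Ly6e the 4 populations lie close together except for Itga8+ replicate 2 at 708 CPM.

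Ly6a was measured first because the antibody to its protein defined the sort. In Sca-1+ cells its level was 658, 637 and 611 CPM in replicates 1 to 3. It was 23.3, 28.0 and 8.61 CPM in Itga8+ cells, 28.4, 18.3 and 35.7 CPM in Itga8- BLCs, and 1.23, 0.602 and 2.42 CPM in CD51+CD140a+ cells. The Sca-1+ libraries were well separated from all others, while those of Itga8+ cells and Itga8- BLCs overlapped, and the lowest lay in the population that had not been gated on Sca-1. The log2 fold change of Sca-1+ cells was 4.99 ± 0.58 (SE) over Itga8+ cells (adjusted p = 0.000256), 4.53 ± 0.56 over Itga8- BLCs (adjusted p = 0.00025) and 8.81 ± 0.69 over CD51+CD140a+ cells (adjusted p = 4.39e-06). Ly6a was also called higher in both Sca-1- populations than in CD51+CD140a+ cells, by 3.82 ± 0.55 (adjusted p = 0.000347) and 4.28 ± 0.57 (adjusted p = 0.000178) on the log2 scale. Without CD51+CD140a+ replicate 3 the 3 differences from that population were 9.43, 4.44 and 4.90. Since Sca-1 protein split the bone-derived populations, the differences between Sca-1+ cells and the Alcam+ populations check the labels and are no finding about Ly6a.

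Ly6c1, whose protein is found on endothelial cells, followed Ly6a closely without having been used in the sort. It reached 524, 505 and 494 CPM in Sca-1+ cells, 22.3, 25.8 and 5.83 CPM in Itga8+ cells, and 27.3, 13.4 and 43.8 CPM in Itga8- BLCs. In CD51+CD140a+ cells it had 7, 0 and 6 counts. Its level in Sca-1+ cells exceeded that in Itga8+ cells by 4.82 ± 0.73 (adjusted p = 0.00117), that in Itga8- BLCs by 4.17 ± 0.70 (adjusted p = 0.00169) and that in CD51+CD140a+ cells by 11.90 ± 1.01 (adjusted p = 7.71e-06), all as log2 fold changes. The ratio of Ly6a to Ly6c1 within a library was 1.24 to 1.26 in Sca-1+ cells, 1.05 to 1.48 in Itga8+ cells and 0.816 to 1.36 in Itga8- BLCs. In the 2 CD51+CD140a+ libraries with a count of Ly6c1 the ratio was 6.43 and 12.5, so that the pair did not keep 1 ratio in all populations.

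Ly6c2, the Ly6C gene of monocytes and granulocyte precursors, was lower in Sca-1+ cells than in the Alcam+ populations. It was at 23.8, 14.9 and 17.4 CPM in Sca-1+ cells, 99.8, 391 and 42.2 CPM in Itga8+ cells, 174, 124 and 241 CPM in Itga8- BLCs, and 24.3, 18.9 and 10.9 CPM in CD51+CD140a+ cells. Both Alcam+ populations were called higher than Sca-1+ cells, with log2 fold changes of -3.25 ± 0.69 (adjusted p = 0.00846) and -3.26 ± 0.69 (adjusted p = 0.00634) for Sca-1+ cells against them. Replicate 2 was by far the highest of the Itga8+ libraries, and no fit of Ly6c2 without it was read. Against CD51+CD140a+ cells, Ly6c2 was called higher in both Alcam+ populations, as Ly6c1 was, by 3.30 ± 0.69 (adjusted p = 0.004) and 3.31 ± 0.69 (adjusted p = 0.0037). Its difference between Sca-1+ and CD51+CD140a+ cells, 0.05 ± 0.63, did not pass the test (adjusted p = 0.99). Within libraries, Ly6c1 had 22.0 to 33.9 times the CPM of Ly6c2 in Sca-1+ cells and 0.0659 to 0.224 times its CPM in the Alcam+ populations. The blood cell markers moved with Ly6c2, and of 19 tested 9 were called lower in Sca-1+ cells than in Itga8+ cells and 7 lower than in Itga8- BLCs, with none higher by edgeR. Their sum was higher in every Alcam+ library than in every Sca-1+ library, and Elane, a neutrophil elastase of granulocyte precursors, was at 829 ± 594 CPM (SD, n = 3) in Itga8+ cells and 741 ± 239 in Itga8- BLCs, against 93.4 ± 16.8 in Sca-1+ cells and 104 ± 47.7 in CD51+CD140a+ cells. Their part in the Ly6c2 result was not tested.

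Ly6e, an interferon-inducible Ly6 protein of broad expression, was the exception among the chosen genes. It lay at 230, 189 and 211 CPM in Sca-1+ cells, 215, 708 and 214 CPM in Itga8+ cells, 183, 143 and 192 CPM in Itga8- BLCs, and 154, 151 and 161 CPM in CD51+CD140a+ cells. A single library, Itga8+ replicate 2, stood above all the rest. The log2 fold changes of Sca-1+ cells were -0.85 ± 0.41 against Itga8+ cells (adjusted p = 0.173), 0.28 ± 0.41 against Itga8- BLCs (adjusted p = 0.657) and 0.44 ± 0.41 against CD51+CD140a+ cells (adjusted p = 0.575). Ly6e was called lower in Sca-1+ cells than in Itga8+ cells without Itga8+ replicate 1 (log2 fold change -1.13, edgeR adjusted p of 0.0982) and without Itga8+ replicate 3 (-1.08, adjusted p of 0.0684), and the difference was -0.01 without Itga8+ replicate 2. Itga8+ cells were called higher than CD51+CD140a+ cells, by 1.29 ± 0.41 (adjusted p = 0.0358), but without Itga8+ replicate 2 the difference was 0.49 with an edgeR adjusted p of 0.118. In a fit of these 2 populations alone the difference was 1.26 and did not pass either, with an adjusted p of 0.117. In that library the interferon-stimulated genes summed to 1181 CPM, against 333 and 340 CPM in the other Itga8+ libraries, alongside the blood sum given above. Itga8- Alcam+ replicate 3 had a like interferon sum, 1177 CPM, with Ly6e at 192 CPM. The part of interferon-stimulated and blood cell genes in the Ly6e level was not tested.

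**Figure D2:**
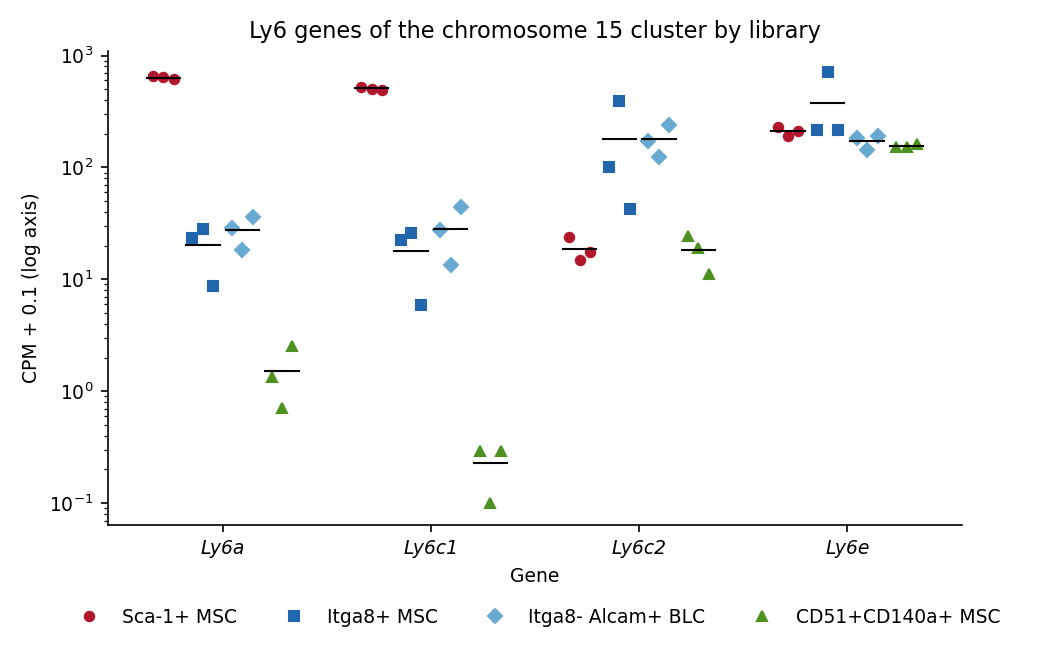
Ly6a, Ly6c1, Ly6c2 and Ly6e in each library, as CPM + 0.1 on a log axis, with 1 point per library and a bar at the mean of 3. Ly6a and Ly6c1 are highest in Sca-1+ cells, Ly6c2 is highest in the Itga8+ and Itga8- Alcam+ populations, and Ly6e differs little between populations apart from the 1 Itga8+ library at 708 CPM.

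The rest of the Ly6/uPAR family was mixed. Of 33 further family genes listed, 30 were matched and 20 tested. In Sca-1+ cells, 2 of these 20 were called higher and 5 lower than in Itga8+ cells, 2 higher and 6 lower than in Itga8- BLCs, and 8 higher and 2 lower than in CD51+CD140a+ cells. Of all genes tested, 8.89%, 11.9% and 11.2% were called higher in these comparisons, and 12.9%, 14.5% and 9.3% lower. The genes called higher than in both Alcam+ populations, and also than in CD51+CD140a+ cells, were Slurp1, a secreted Ly6 protein, and Lynx1, a modulator of nicotinic acetylcholine receptors, which was named after its values were seen. Slurp1 was at 43.3 ± 13.1 CPM in Sca-1+ cells, 1.00 ± 1.38 in Itga8+ cells, 1.94 ± 1.71 in Itga8- BLCs and 0.00910 ± 0.0158 in CD51+CD140a+ cells. Plaur, the urokinase receptor, was lower in Sca-1+ cells (102 ± 4.41 CPM) than in Itga8+ cells (339 ± 167 CPM, log2 fold change -1.73, adjusted p = 0.0157) and Itga8- BLCs (354 ± 142 CPM, log2 fold change -1.79, adjusted p = 0.0103), and higher than in CD51+CD140a+ cells (6.06 ± 1.93 CPM, log2 fold change 4.08, adjusted p = 6.48e-05). Cd59a, an inhibitor of complement lysis, was at 7.67 ± 1.75 CPM in Sca-1+ cells and 56.0 ± 33.0 CPM in Itga8- BLCs (log2 fold change -2.87, adjusted p = 0.00584). Ly6a and Ly6e can be induced by interferons, and the levels of 30 other interferon-stimulated genes were read beside them. Their sum was highest in CD51+CD140a+ cells, at 1989 to 2374 CPM, where Ly6a was lowest, and was 517 to 683 CPM in Sca-1+ cells. Of the 30, 16 were called lower and 2 higher in Sca-1+ cells than in CD51+CD140a+ cells, and Iigp1, an immunity-related GTPase, was at 13.1 ± 7.82 CPM and 199 ± 55.3 CPM (log2 fold change -3.93, adjusted p = 0.000127). B2m, the light chain of class I MHC molecules, was at 181 ± 14.0 CPM in Sca-1+ cells and 983 ± 144 CPM in CD51+CD140a+ cells. Against Itga8+ cells and Itga8- BLCs, 9 and 13 of the 30 were called higher in Sca-1+ cells, against 8.89% and 11.9% of all genes, and 1 and 0 lower by edgeR. The part of interferon in the Ly6a levels was not tested.

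Among the surface markers, Cd34, a sialomucin of progenitors and endothelium, was at 1444, 1285 and 1182 CPM in Sca-1+ cells, 47.7, 61.2 and 46.7 CPM in Itga8+ cells, 37.8, 30.0 and 32 CPM in Itga8- BLCs, and 8.03, 14.6 and 4.83 CPM in CD51+CD140a+ cells. The 4 populations were separated without overlap in that order, although the difference between Itga8+ cells and Itga8- BLCs did not pass the test (log2 difference 0.64 ± 0.35, adjusted p = 0.527). The log2 fold change of Sca-1+ cells was 4.65 ± 0.40 over Itga8+ cells (adjusted p = 4.65e-05), 5.29 ± 0.41 over Itga8- BLCs (adjusted p = 1.68e-05) and 7.15 ± 0.45 over CD51+CD140a+ cells (adjusted p = 1.36e-06). Cd34 (chr1:194938819-194961279) shares 2.03% of its exonic bases with the antisense gene Gm16897.

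Ly6a, Ly6c1 and Cd34 are also genes of endothelial cells, and 18 endothelial markers were read in the same libraries. Their sum was 115 to 144 CPM in Sca-1+ cells, 36.2 to 87.6 in Itga8+ cells, 45.6 to 55.8 in Itga8- BLCs and 31.4 to 65.4 in CD51+CD140a+ cells. Only 1 of the 18 was called higher in Sca-1+ cells than in Itga8+ cells, and only 1 than in Itga8- BLCs, in each case Tek (4 were higher and 1 lower than in CD51+CD140a+ cells), an angiopoietin receptor, at 69.9 ± 20.4 CPM against 1.6 ± 2.09 and 1.36 ± 1.47 CPM. The sum of all 18 was higher in every Sca-1+ library than in any other library. Tek was then set apart, a choice made after its values were seen. The other 17 summed to 50.4 to 59.2 CPM in Sca-1+ cells, 35.6 to 83.6 CPM in Itga8+ cells, 45.0 to 54.5 CPM in Itga8- BLCs and 27.5 to 62.3 CPM in CD51+CD140a+ cells, ranges that overlap. Pecam1, which encodes CD31, was at 5.51 ± 1.92 CPM in Sca-1+ cells and 3.99 to 6.40 CPM on average in the other populations, and Cdh5, the cadherin of endothelial junctions, named after its values were seen, was at 1.26 ± 0.159 CPM in Sca-1+ cells, 3.52 ± 1.29 in Itga8+ cells, 0.392 ± 0.344 in Itga8- BLCs and 0.458 ± 0.396 in CD51+CD140a+ cells. The part of endothelial cells in the levels of Ly6a, Ly6c1 and Cd34 was not tested.

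Cd248, or endosialin, a C-type lectin-domain receptor of stromal and perivascular cells, differed from the other genes in its second-highest population. It was at 685, 573 and 418 CPM in Sca-1+ cells, 19.5, 2.86 and 14.3 CPM in Itga8+ cells, 11.9, 9.73 and 6.23 CPM in Itga8- BLCs, and 14.9, 20.2 and 28.1 CPM in CD51+CD140a+ cells. The Sca-1+ libraries stood above the rest, and CD51+CD140a+ cells came second on average rather than last. Sca-1+ cells exceeded Itga8+ cells by 5.51 ± 0.65 (adjusted p = 0.000284), Itga8- BLCs by 5.91 ± 0.66 (adjusted p = 0.000123) and CD51+CD140a+ cells by 4.73 ± 0.62 (adjusted p = 0.000201) on the log2 scale. The differences of Itga8+ cells and Itga8- BLCs from CD51+CD140a+ cells were -0.79 ± 0.54 (adjusted p = 0.282) and -1.18 ± 0.54 (adjusted p = 0.121). Without Itga8+ replicate 2 the second of these passed, with an edgeR adjusted p of 0.0143.

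Clec3b, which encodes the plasminogen-binding protein tetranectin, was nearly restricted to Sca-1+ cells. It was at 78.4, 109 and 69.2 CPM there, at 0.0989, 0.675 and 0.462 CPM in Itga8+ cells and at 0.299, 0.788 and 1.20 CPM in Itga8- BLCs, and had 1, 0 and 1 counts in CD51+CD140a+ cells. The mean of Itga8+ cells was 0.482% of that of Sca-1+ cells, the lowest such share among the 10 genes, and that of Itga8- BLCs was 0.892%. The log2 fold change of Sca-1+ cells was 7.69 ± 0.71 over Itga8+ cells (adjusted p = 7.77e-05) and 6.81 ± 0.67 over Itga8- BLCs (adjusted p = 5.95e-05), and the first of these was 8.28 without Itga8+ replicate 2. With 2 counts in all in CD51+CD140a+ cells against 5030 in Sca-1+ cells, the ratio was 4365 with an exact 95% counting interval of 1208 to 36055, which covers counting error only.

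Relatives of these surface and lectin genes were mixed. Of 7 listed, 1 was called higher and 1 lower in Sca-1+ cells than in Itga8+ cells, the same counts held against Itga8- BLCs, and 3 were higher and 2 lower than in CD51+CD140a+ cells. Thbd, or thrombomodulin, was at 163 ± 33.3 CPM in Sca-1+ cells, 25.1 ± 20.4 in Itga8+ cells and 34.6 ± 31.9 in Itga8- BLCs, but at 281 ± 28.9 in CD51+CD140a+ cells. Clec3a, the cartilage relative of Clec3b, was at 299 ± 48.5, 175 ± 93.9, 145 ± 53.4 and 1.91 ± 0.976 CPM in Sca-1+ cells, Itga8+ cells, Itga8- BLCs and CD51+CD140a+ cells, and did not pass the test between the first 3. Clec11a, a bone growth factor, was lower in Sca-1+ cells (188 ± 14.5 CPM) than in Itga8+ cells (486 ± 127 CPM, log2 fold change -1.37, adjusted p = 0.00631) and higher than in CD51+CD140a+ cells (91.0 ± 19.0 CPM, log2 fold change 1.05, adjusted p = 0.0188), and Clec14a was highest in CD51+CD140a+ cells, at 20.8 ± 3.18 CPM against 5.49 ± 0.723 in Sca-1+ cells.

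Pi16, a secreted CAP-domain protein that gives its name to an adventitial fibroblast state, varied most between libraries of Sca-1+ cells. It was at 201, 126 and 77.8 CPM in them, 25.7, 6.23 and 12.1 CPM in Itga8+ cells, 4.98, 5.74 and 1.98 CPM in Itga8- BLCs, and had 5, 0 and 1 counts in CD51+CD140a+ cells. The Sca-1+ libraries differed from each other by 2.58-fold, and all 3 lay above every other library. The log2 fold change of Sca-1+ cells was 3.20 ± 0.67 over Itga8+ cells (adjusted p = 0.00796), 4.99 ± 0.73 over Itga8- BLCs (adjusted p = 0.000703) and 11.06 ± 1.00 over CD51+CD140a+ cells (adjusted p = 1.26e-05). The first was 3.88 without Itga8+ replicate 1 and the last 12.65 without CD51+CD140a+ replicate 1. All Itga8+ libraries lay above all Itga8- Alcam+ libraries, with a log2 difference of 1.79 ± 0.64 that did not pass the test (adjusted p = 0.243). Without Itga8+ replicate 2 the difference was 2.17 and passed (edgeR adjusted p of 0.0757). Of 8 other CAP genes listed, 5 were tested, and 1 was called higher and 2 lower in Sca-1+ cells than in Itga8+ cells. Glipr2 was the one called higher, at 95.4 ± 24.7 CPM against 34.1 ± 18.5 CPM (adjusted p = 0.0194), and it was also called higher than in Itga8- BLCs (log2 fold change 1.85, adjusted p = 0.0051) and CD51+CD140a+ cells (1.26, adjusted p = 0.0344). R3hdml was at 0.376 ± 0.400 CPM in Sca-1+ cells and 147 ± 65.7 CPM in Itga8+ cells (adjusted p = 0.00031), and Crispld1 at 99.6 ± 20.1 CPM and 403 ± 138 CPM (adjusted p = 0.0247). Crispld2, a secreted lipopolysaccharide-binding protein, was at 384 ± 66.0 CPM in Sca-1+ cells, 287 ± 128 CPM in Itga8+ cells and 4.73 ± 1.35 CPM in CD51+CD140a+ cells. Of the 5 tested, 1 was called higher and 1 lower than in Itga8- BLCs, and 3 higher and none lower than in CD51+CD140a+ cells by edgeR.

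Dpp4, or CD26, a surface peptidase that clips dipeptides from chemokines, was at 211, 168 and 166 CPM in Sca-1+ cells. It was at 8.46, 10.4 and 9.41 CPM in Itga8+ cells, 6.62, 5.65 and 0.779 CPM in Itga8- BLCs, and 2.32, 4.30 and 1.29 CPM in CD51+CD140a+ cells. The 3 Itga8+ libraries agreed within a narrow range above both remaining populations. Sca-1+ cells were higher by 4.27 ± 0.66 than Itga8+ cells (adjusted p = 0.00137), by 5.38 ± 0.70 than Itga8- BLCs (adjusted p = 0.00033) and by 6.10 ± 0.72 than CD51+CD140a+ cells (adjusted p = 9.43e-05) on the log2 scale. Itga8+ cells were called higher than CD51+CD140a+ cells, by 1.84 ± 0.61 (adjusted p = 0.0393), a call that was lost without CD51+CD140a+ replicate 1 (log2 fold change 1.75, adjusted p = 0.112) or replicate 3 (1.51, adjusted p = 0.133). Itga8- BLCs were called higher than CD51+CD140a+ cells only without Itga8- replicate 3 (log2 difference 1.22, edgeR adjusted p of 0.0564). Dpp4 shares 3.67% of its exonic bases with the antisense gene Gm13561, and Pi16 shares 3.49% with AC162182.1.

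Of 10 further ectopeptidases and DPP4 relatives, 9 were tested, and 4 of them were called higher and 0 lower in Sca-1+ cells than in Itga8+ cells by edgeR, 4 higher and 1 lower than in Itga8- BLCs, and 2 higher and 1 lower than in CD51+CD140a+ cells. Fap, the closest relative of Dpp4 and a marker of activated fibroblasts, was at 171 ± 23.0 CPM in Sca-1+ cells, 169 ± 40.7 in Itga8+ cells, 426 ± 187 in Itga8- BLCs and 191 ± 9.88 in CD51+CD140a+ cells, and was called lower in Sca-1+ cells than in Itga8- BLCs (log2 fold change -1.31, adjusted p = 0.0158). Mme, or neprilysin, was at 61.6 ± 5.51, 6.53 ± 5.70, 34.9 ± 17.4 and 686 ± 55.5 CPM in the same order. The cytosolic peptidases Dpp8 and Prep were at 82.2 ± 3.51 and 64.9 ± 2.65 CPM in Sca-1+ cells, and their means in the other populations were 36.7 to 59.7 and 55.6 to 64.1 CPM.

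Dpt, or dermatopontin, a small matrix protein that binds decorin, was at 152, 140 and 106 CPM in Sca-1+ cells, 3.51, 8.20 and 3.52 CPM in Itga8+ cells, and 2.29, 2.87 and 3.36 CPM in Itga8- BLCs. It had 1, 0 and 1 counts in CD51+CD140a+ cells. The populations did not overlap, and the log2 fold change of Sca-1+ cells was 4.70 ± 0.45 over Itga8+ cells (adjusted p = 9.38e-05) and 5.54 ± 0.47 over Itga8- BLCs (adjusted p = 2.6e-05). Against CD51+CD140a+ cells, the 7758 counts in Sca-1+ cells gave a ratio of 6733 with an exact 95% counting interval of 1863 to 55604. The 290 counts in Itga8+ cells gave a ratio of 262, with an interval of 71.8 to 2173. Both intervals cover counting error only and not the spread between libraries.

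Sema3c, a secreted semaphorin that steers axons and vessels through neuropilins and plexins, was the most even gene in Sca-1+ cells and among the most variable elsewhere. It was at 684, 670 and 687 CPM in Sca-1+ cells, 92.3, 32.7 and 147 CPM in Itga8+ cells, 29.2, 81.2 and 13.5 CPM in Itga8- BLCs, and 1.26, 0 and 0.515 CPM in CD51+CD140a+ cells. The Sca-1+ libraries lay above all others, and the log2 fold change over Itga8+ cells was 2.91 ± 0.93 (adjusted p = 0.0542). This call was lost when any 1 Sca-1+ library or Itga8+ replicate 1 was left out, with adjusted p between 0.11 and 0.122 and log2 fold changes from 2.90 to 2.92. The log2 fold change was 4.04 ± 0.98 over Itga8- BLCs (adjusted p = 0.0128) and 10.15 ± 1.29 over CD51+CD140a+ cells (adjusted p = 0.000156). These were 5.03 without Itga8- replicate 2 and 11.37 without CD51+CD140a+ replicate 1.

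The receptors of class 3 semaphorins were read beside Sema3c. Nrp1 was at 117 ± 31.4 CPM in Sca-1+ cells, 62.5 ± 37.4 in Itga8+ cells, 47.1 ± 16.6 in Itga8- BLCs (log2 fold change 1.32, adjusted p = 0.0475) and 952 ± 168 CPM in CD51+CD140a+ cells (log2 fold change -3.02, adjusted p = 0.000555). Plxna2, a plexin co-receptor, was at 17.2 ± 6.70, 5.37 ± 6.17, 5.09 ± 4.18 and 260 ± 11.6 CPM in the same order, and Sca-1+ cells passed the test against the last only (log2 fold change -3.92, adjusted p = 0.00459). Nrp2 was at 45.1 ± 10.0 CPM in Sca-1+ cells, 27.2 ± 29.8 in Itga8+ cells, 329 ± 322 in Itga8- BLCs and 196 ± 46.0 in CD51+CD140a+ cells. Sema3b, another ligand of the class, was at 94.6 ± 6.79 CPM in Sca-1+ cells, 68.3 ± 39.9 CPM in Itga8+ cells and 161 ± 30.7 CPM in Itga8- BLCs. Of the 13 ligands and receptors tested besides Sema3c, 2 were called higher and 0 lower in Sca-1+ cells than in Itga8+ cells by edgeR, 4 higher and 1 lower than in Itga8- BLCs, and 5 higher and 4 lower than in CD51+CD140a+ cells.

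**Figure D3:**
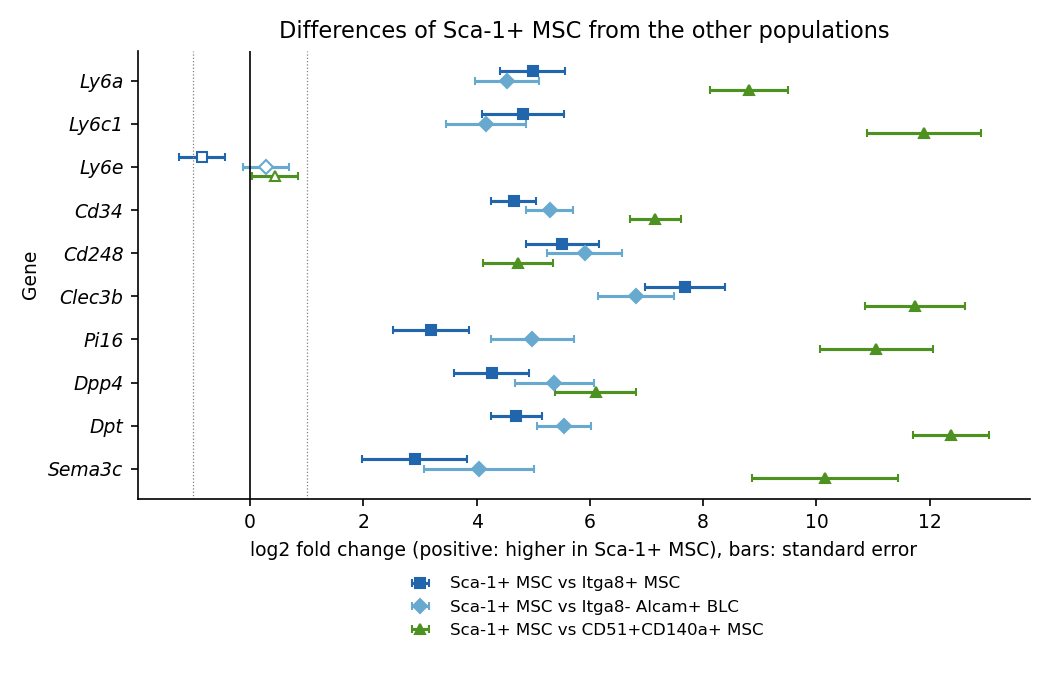
log2 fold changes of Sca-1+ cells against each of the other populations for the 10 genes, with bars for the standard error, filled symbols for called genes and dotted lines at a fold change of 2. Every symbol but those of Ly6e lies to the right of 2 on the log2 axis, and the fitted values against CD51+CD140a+ cells reach 12.37 for Dpt, which had 2 counts in all there.

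Outside Sca-1+ cells, the 9 genes other than Ly6e remained at a low share of their Sca-1+ level. The share was 0.482% (Clec3b) to 13.3% (Sema3c) with a median of 3.83% in Itga8+ cells, and 0.892% (Clec3b) to 6.07% (Sema3c) with a median of 2.55% in Itga8- BLCs. In CD51+CD140a+ cells it was 0.015% (Dpt) to 3.77% (Cd248), with a median of 0.0868%. By single library of Itga8- BLCs, the share of Sema3c ran from 1.98% to 11.9%. That of Ly6c1, the next highest there at 5.55%, ran from 2.64% to 8.62%. Itga8+ cells and Itga8- BLCs were compared directly, and edgeR called 0 of the 10 genes between them, against 3.82% of all genes in either direction. At an unadjusted p under 0.05 there were 2 (Ly6e and Pi16), against 12.1% of all genes, DESeq2 called 1 (Pi16, adjusted p = 0.0694), against 6.45%, and limma-trend called 0, against 4.99%. Libraries did not overlap for 5 of the 10, all higher in Itga8+ cells (Ly6e, Cd34, Pi16, Dpp4 and Dpt), against 14.2% of all genes, and the median log2 difference of the 10 was 0.74, against 0.084 over all genes. Against CD51+CD140a+ cells, 9 genes, all but Cd248, were called higher in Itga8+ cells, against 21.2% of all genes. In Itga8- BLCs 7 were called higher than in CD51+CD140a+ cells, all but Ly6e, Dpp4 and Cd248, against 20.4% of all genes. None of the 10 was called lower in either comparison by this edgeR fit, while 14.3% and 14.9% of all genes were. In 4 alternatives, DESeq2 among them, Cd248 was called lower in Itga8- BLCs than in CD51+CD140a+ cells. For these comparisons the median log2 fold changes of the 10 genes were 3.94 and 4.60, against 0.18 and 0.091 over all genes.

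The order of the populations was the same for several genes. For Cd34, Pi16, Dpp4, Dpt and Sema3c the mean fell from Sca-1+ cells to Itga8+ cells, Itga8- BLCs and CD51+CD140a+ cells. For Ly6a, Ly6c1 and Clec3b the order of the 2 middle populations was exchanged. The middle neighbours did not pass the test for any of these 8 genes (adjusted p from 0.243 for Pi16 to 0.836 for Ly6a), so their order is not established. The last step to CD51+CD140a+ cells passed for all of them except Dpp4, for which the adjusted p between Itga8- BLCs and CD51+CD140a+ cells was 0.376. With 3 libraries a side, the two-sided exact permutation p cannot go below 0.1, and it took that value in every pair without overlap. The 9 genes called in each Sca-1+ comparison were also without overlap there, as were 37.6%, 45.7% and 45.9% of all genes against Itga8+ cells, Itga8- BLCs and CD51+CD140a+ cells.

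Levels of different genes were compared per exon length, in TPM, which scales counts to exon length and library size. In Sca-1+ cells Ly6a led at 1963 ± 115 TPM (SD, n = 3), followed by Ly6c1 at 1127 ± 56.7, Cd248 at 800 ± 208, Cd34 at 666 ± 81.3, Sema3c at 354 ± 8.07, Clec3b at 321 ± 78.6, Dpt at 287 ± 56.8, Ly6e at 207 ± 22.8, Dpp4 at 107 ± 16.9 and Pi16 at 79.3 ± 38.0 TPM. By this measure Ly6a ranked 49 and Pi16 1854 among the 18648 genes. Lengths of the longest transcript in place of the union of exons raised Cd34 to 1239 TPM and Ly6c1 to 1750 TPM and placed Ly6e, at 268 TPM, above Clec3b at 250 and Dpt at 224 TPM, so the order of Cd34 and Cd248 and that of Ly6e, Clec3b and Dpt depend on the transcript model. Among the Sca-1+ libraries the coefficient of variation was 1.28% for Sema3c, 2.94% for Ly6c1, 3.76% for Ly6a, 24.1% for Cd248 and 46.0% for Pi16. Replicate 1 was the highest of the 3 for 8 of the 10 genes and replicate 3 the lowest for 8.

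A wider set of adventitial and universal fibroblast genes was read in the same way. Of 38 genes listed, all tested, 25 were called higher and 1 lower in Sca-1+ cells than in Itga8+ cells, 25 higher and 2 lower than in Itga8- BLCs, and 29 higher and 1 lower than in CD51+CD140a+ cells. Their median log2 fold changes were 2.42, 2.63 and 4.52, against -0.16, -0.12 and -0.0025 over all genes. Their sum was 51877 to 69887 CPM in Sca-1+ cells, most of it from Gsn, and 4358 to 10567 CPM in the other libraries. Gsn, or gelsolin, which severs actin filaments, was at 37837 ± 7062 CPM in Sca-1+ cells, 2318 ± 813 in Itga8+ cells, 3127 ± 392 in Itga8- BLCs and 663 ± 168 in CD51+CD140a+ cells, with log2 fold changes of 4.03, 3.60 and 5.83 (adjusted p = 6.61e-05, 5.95e-05 and 2.2e-06). Timp2, an inhibitor of metalloproteinases, was at 4710 ± 140 CPM against 1663 ± 817, 650 ± 183 and 835 ± 147 CPM. Gfpt2, an enzyme of hexosamine synthesis, was at 2035 ± 518 CPM in Sca-1+ cells and 1044 ± 412 CPM in Itga8+ cells, a log2 difference of 0.96 below the fold threshold. Cd9, a tetraspanin, was at 1653 ± 265, 1553 ± 935 and 1318 ± 626 CPM in the bone-derived populations and did not pass the test between Sca-1+ cells and either Alcam+ population.

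Further genes of this list were chosen after their values were seen. Tnxb, a tenascin of connective tissue, Col14a1, a collagen of fibril surfaces, Il33, an alarmin of adventitial stroma, and Wnt2, a secreted Wnt ligand, had log2 fold changes of 7.32, 7.21, 6.53 and 5.71 over Itga8+ cells. Cd55, a complement inhibitor used with Dpp4 and Pi16 to mark the progenitor state, had log2 fold changes of 4.99, 4.89 and 5.01 over Itga8+ cells, Itga8- BLCs and CD51+CD140a+ cells. The exceptions were Bmp7, a bone morphogenetic protein, at log2 fold changes of -6.25 and -6.23 against the Alcam+ populations, Smpd3 at -2.54 against Itga8- BLCs and Limch1 at -2.36 against CD51+CD140a+ cells. Penk, Gli1, Pcolce2, Aldh1a3 and Uchl1 were called higher in Sca-1+ cells than in CD51+CD140a+ cells, and had log2 differences of -0.05 to 0.60 from Itga8+ cells that did not pass the test. Scara5, Heg1, C3 and Fbn1 were called higher in Sca-1+ cells than in both Alcam+ populations, and had log2 differences of 0.94 to 1.39 from CD51+CD140a+ cells that did not pass the test.

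**Figure D4:**
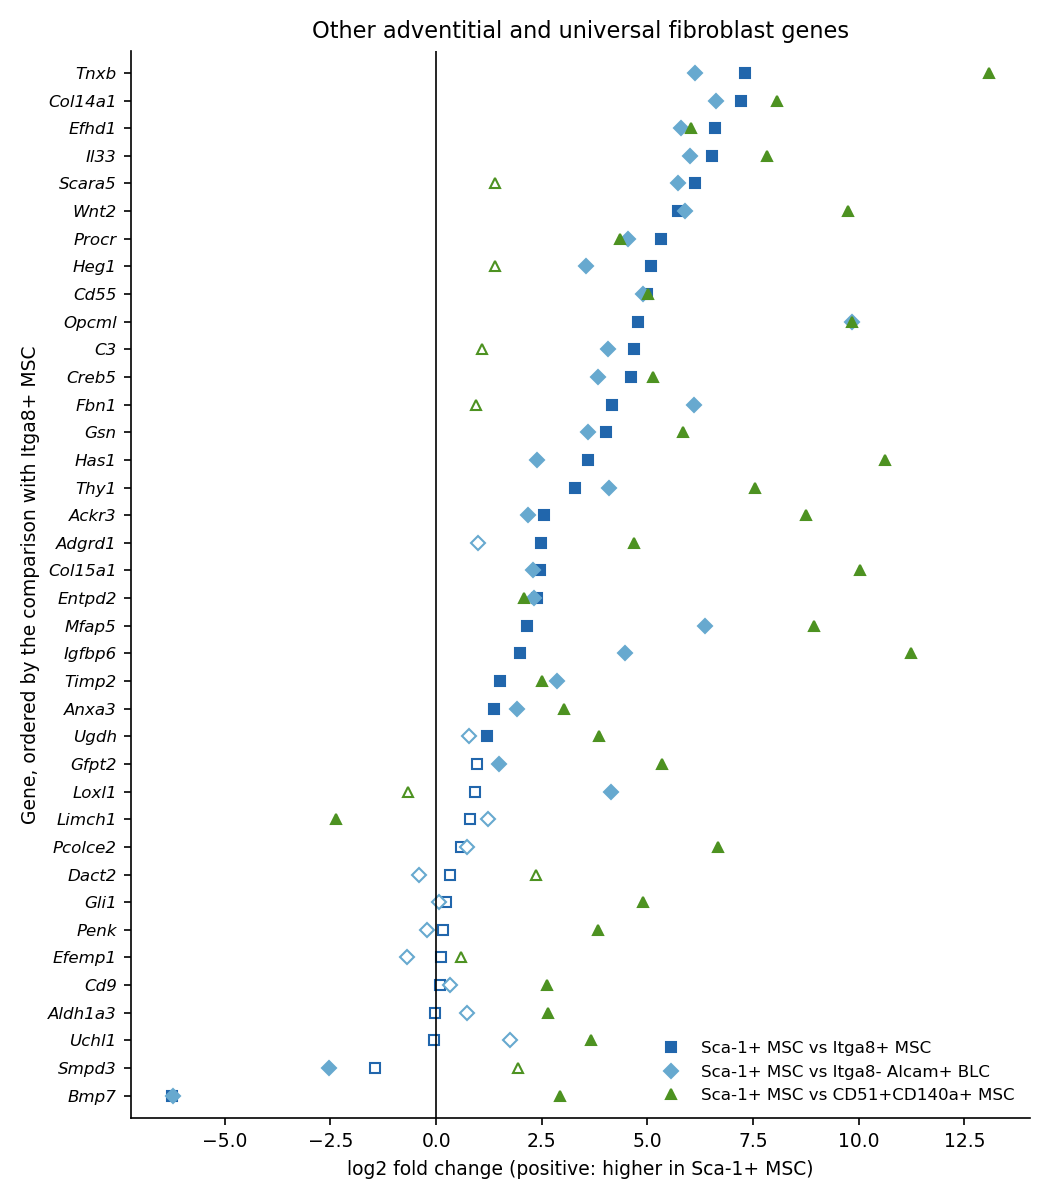
log2 fold changes of Sca-1+ cells against the other populations for the 38 other adventitial and universal fibroblast genes, 1 row per gene and 1 symbol per comparison, filled where called. The filled symbols lie to the right for 25, 25 and 29 genes, and Bmp7 lies at -6.25 and -6.23 against the Alcam+ populations. The position of Opcml against Itga8- BLCs and CD51+CD140a+ cells, where all libraries had 0 counts, depends on the fit and is no bound.

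Other marker lists were read to describe what else the Sca-1+ libraries held. Of 9 tendon markers, 0 were called higher and 3 lower in Sca-1+ cells than in Itga8+ cells by edgeR, 3 higher and 0 lower than in Itga8- BLCs by the same test, and 6 higher and 1 lower than in CD51+CD140a+ cells. Fmod, a small leucine-rich proteoglycan, was at 5203 ± 1090 CPM in Sca-1+ cells. Of 11 pericyte and smooth muscle markers, 1 was called higher and 3 lower than in Itga8+ cells, 0 higher and 3 lower than in Itga8- BLCs by edgeR, and 1 higher and 3 lower than in CD51+CD140a+ cells. Against CD51+CD140a+ cells, Notch3 was lower (2.00 ± 1.69 against 112 ± 53.3 CPM) and Cspg4, the NG2 proteoglycan, was higher (188 ± 64.3 against 4.5 ± 0.971 CPM, log2 fold change 5.38, adjusted p = 0.00156). The 7 skeletal muscle markers summed to 0.984 to 2.27 CPM in Sca-1+ cells, with Acta1, the actin of skeletal muscle, at 0.312 ± 0.497 CPM against 15.8 ± 7.84 CPM in Itga8+ cells, and Myh4, Pax7 and Myod1, named after their values were seen, at 0 counts. Lepr, the defining receptor of perivascular marrow stroma, was at 201 ± 16.9 CPM in Sca-1+ cells, 34.3 ± 24.9 in Itga8+ cells, 24.4 ± 21.8 in Itga8- BLCs and 6110 ± 548 CPM in CD51+CD140a+ cells, and was called higher in Sca-1+ cells than in Itga8+ cells and Itga8- BLCs (adjusted p = 0.019 and 0.00681). Of the 11 LepR+ stromal markers, all 11 were called lower in Sca-1+ cells than in CD51+CD140a+ cells, while 4 were called higher and 2 lower than in Itga8+ cells and 5 higher and 3 lower than in Itga8- BLCs. Of 11 osteoblast markers tested, 0 were called higher and 8 lower than in Itga8- BLCs by edgeR, 1 higher and 5 lower than in Itga8+ cells, with a median log2 fold change of 0.89, and 1 higher and 7 lower than in CD51+CD140a+ cells. The osteoblast sum was 18394 to 22084 CPM in Sca-1+ cells and 2931 to 9173 CPM in Itga8+ cells, and Col1a1, the main collagen of bone, was at 17256 ± 1946 and 4459 ± 3731 CPM.

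Genes whose levels across the 12 libraries were most like those of Ly6a and Pi16 were ranked by Pearson's r of log2(CPM + 1) among 10562 genes with a mean of at least 10 CPM in at least 1 population. The libraries fall into 4 populations, so that r describes mainly the differences between population means, and no p is given. The 5 genes closest to Ly6a, apart from the 10 themselves, were 1700019D03Rik (r = 0.984), Barx1 (0.984), Fez1 (0.983), Vat1l (0.976) and Osr2 (0.974). Osr2, a zinc finger transcription factor of mesenchyme, averaged 137 CPM in Sca-1+ cells, 12.8 in Itga8+ cells, 11.5 in Itga8- BLCs and 3.88 in CD51+CD140a+ cells, and Barx1, a homeobox factor, averaged 42.9, 3.23, 5.20 and 0.0455 CPM. The 5 closest to Pi16 were Steap3 (r = 0.981), Pamr1 (0.978), Ccdc80 (0.978), Frmd7 (0.976) and Tgfbi (0.972). Ccdc80, a secreted matrix protein, averaged 3128 CPM in Sca-1+ cells, 684 in Itga8+ cells, 490 in Itga8- BLCs and 156 in CD51+CD140a+ cells.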

How the data were processed

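RNA from 2000 sorted cells per library was copied to cDNA with the SMART-Seq v4 kit, made into Nextera XT libraries and sequenced on an Illumina NextSeq instrument. What the authors deposited are unnormalized read counts, 1 table a library, keyed by Ensembl gene. The study's methods state mapping to mm10 with TopHat and Bowtie2, while the submitters' processing notes name FastQC 0.11.7, Trimmomatic 0.38, HISAT2 2.1.0, SAMtools 1.9 and featureCounts 1.6.3; which aligner made the counts, the annotation release, the use of strand and the treatment of multiply mapped reads are not given in the sources used here. Gene symbols and positions came from GENCODE M21 (GRCm38), which held 49326 of the 49585 identifiers.

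Genes reaching 0.5 CPM (a threshold on library totals) in any 1 library were fitted over all 12 libraries in 1 edgeR quasi-likelihood model (R 4.3.3, edgeR 4.0.16) after TMM scaling, and 6 pairs of populations were compared. Printed CPM is TMM-scaled. Standard errors were taken from the log2 fold change and its F statistic, and the fit was tested on simulated data. limma 3.58.1 and DESeq2 1.42.0, other scalings and filters, a replicate block, a stricter threshold and each library left out were alternatives. TPM used union exon lengths. Tables were handled in Python 3.11.15 with pandas 2.3.3.

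The 10 genes, the lists and the tests were chosen with earlier results of these data known. Named genes were the 10, the 4 tested genes of highest mean CPM in each other list, a gene needed to say what limits one of the 10, and the 5 most like Ly6a and Pi16; others are marked where named. Counting intervals are exact (Clopper-Pearson). Same-numbered libraries of different populations did not deviate together (r from -0.582 to 0.204 over 18 pairs, 5 over 0.1), so the numbers were not used to pair samples. Over 36 pairs with different numbers r ran from -0.307 to 0.617, with 7 over 0.1. The highest were Itga8+ replicate 3 with Itga8- replicate 2 (0.617) and Itga8+ replicate 2 with Itga8- replicate 3 (0.590). The labels name no sort or batch shared by these libraries, and no fit used such a matching. No 2 libraries of a population held identical values. PCR copies cannot be told from separate molecules in these counts.

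The result for 1 marker list is not reported here.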

Additional observations from a re-analysis of the deposited data

How the results depend on the processing

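Over 21 alternatives, the number of the 10 genes called was 9 throughout for Sca-1+ cells against Itga8- BLCs and against CD51+CD140a+ cells. It was 8 to 10 against Itga8+ cells, 8 to 9 for Itga8+ cells and 7 to 8 for Itga8- BLCs against CD51+CD140a+ cells. Between Itga8+ cells and Itga8- BLCs it was 0 except with DESeq2 and without Itga8+ replicate 2, each with 1 (Pi16). With the replicate block the counts were 8, 9 and 9 for Sca-1+ cells in the order of the report, 0 between the Alcam+ populations, and 9 and 7 against CD51+CD140a+ cells, the lost gene being Sema3c (adjusted p = 0.107). The stricter threshold of 0.05 on the adjusted p also lost Sema3c against Itga8+ cells. Across single genes and the 20 alternatives other than that threshold, 1180 values kept their direction and their side of the threshold, 9 passed only in an alternative and 9 only in the reported fit. Directions turned in 2 values, neither of them called, Cd248 between Itga8+ cells and Itga8- BLCs without Itga8+ replicate 1 (log2 difference -0.12; -0.12 to 0.88 over single libraries left out) and Ly6e between Itga8- BLCs and CD51+CD140a+ cells with library totals alone (-0.19). The cause was not tested. Cd248 was called lower in Itga8- BLCs than in CD51+CD140a+ cells in 4 alternatives. The percentage of all genes called in either direction ranged from 12.8 to 31.6, 17.1 to 33.1 and 13.6 to 27.1 for Sca-1+ cells in the order of the report, 1.59 to 6.45 between the Alcam+ populations, and 23.5 to 43.0 and 23.4 to 40.3 against CD51+CD140a+ cells. A count of 3 corresponds to 0.0819 to 0.18 CPM, which limits Dpt, Clec3b, Pi16 and Ly6c1 in CD51+CD140a+ cells.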
